A study of Homo sapiens with 2 samples.

Results

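The genes described here are those of interleukin-6 signalling through the JAK kinases and STAT3, measured in C4-2 cells, a human prostate cancer line derived from LNCaP. The group has 10 genes, IL6R, LIFR, IL6ST, JAK1, JAK2, TYK2, STAT3, SOCS2, SOCS3 and PTPN11, of 19775 genes that the array annotation names singly. They were chosen by their place in the pathway with the measured differences between these arrays already known, so every difference below is a description. All probe sets that the annotation assigns to 1 of the 10 genes and to no other named gene were taken, 41 in all. Total RNA was hybridised to Affymetrix arrays 48 h after transfection with miR-99a (1 array) or with the control siRNA si-GL2 (1 array). Both groups were the same line, grown in the same medium with serum and transfected with the same lipid reagent. With 1 array a group, no value has a replicate error and no p-value exists.

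Interleukin-6 binds its own receptor chain, encoded by IL6R, and this complex recruits gp130, the signalling chain encoded by IL6ST. The kinases JAK1, JAK2 and TYK2 sit on gp130 and phosphorylate STAT3, which enters the nucleus and induces, among other genes, its own inhibitor SOCS3. In prostate cancer cells, interleukin-6 signalling has been studied for its effects on growth, neuroendocrine features and androgen receptor activity.

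The transfected RNA belongs to a microRNA family whose members share a seed, the bases at the 5′ end that pair with target messages, and 3 human mature microRNAs in RefSeq (GRCh38.p14) carry the seed of miR-99a. They are shown because the seed largely sets which messages the family can bind, and the capitals mark it (bases 2 to 8 from the 5′ end). The labels give miR-99a without an arm, so the 5p strand is printed as the strand that usually bears that name. Outside the shared seed, miR-100-5p differs from miR-99a-5p at 1 base and miR-99b-5p at 4. Target sites in the members' messages were not searched, since no transcript sequence was used here.
hsa-miR-99a-5p: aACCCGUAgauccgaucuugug
hsa-miR-100-5p: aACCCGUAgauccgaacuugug
hsa-miR-99b-5p: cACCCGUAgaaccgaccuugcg

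A signal is the authors' deposited intensity of 1 probe set on 1 array, taken as linear from the range of the values, since the scale is not stated. A difference is log2(signal + 16) on the miR-99a array minus the same on the si-GL2 array, which understates the change of dim probe sets. A gene is represented by its brightest probe set, and a probe set is called above the limit when its mean level reaches that of the median probe set, a signal of 47.2. This limit is relative and is no detection call. Of the 41 member probe sets, 28 lay above it and 13 below, and each of the 10 genes had at least 1 above. The member probe set just inside was one of IL6ST, at 51.1 after miR-99a and 62.5 after si-GL2, and the one just outside was one of JAK1, at 45.6 after miR-99a and 43.9 after si-GL2.

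The arrays were alike as a whole, with a Pearson r of 0.988 over 54675 probe sets on the log2 scale and a median signal that was 47.8 after miR-99a and 47.4 after si-GL2. Prostate luminal markers were bright on both, for example the kallikrein KLK3 at 6180 after miR-99a and 6783 after si-GL2. All 8 of those measured lay above the limit. By their brightest probe sets the differences ran from KLK2 at -0.20 to the keratin genes KRT18 and KRT8 at 0.31 each. The 3 KLK2 probe sets above the limit ran from -0.78 to -0.13, and the 3 of KLK3 from -0.26 to 0.20. Of 3 leukocyte markers measured, 1 lay above the limit, CD3E at 73.2 after miR-99a and 52.8 after si-GL2, while the leukocyte antigen gene PTPRC was at 39.5 and CD14 at 5.65 after miR-99a, against 22.5 for PTPRC and 1.82 for CD14 after si-GL2. Summed over its measured genes, the leukocyte list was at 118 after miR-99a and 77.1 after si-GL2, the fibroblast list (4 of 5 above the limit) at 483 after miR-99a and 428 after si-GL2, and the endothelial list (1 of 4 above) at 249 after miR-99a and 250 after si-GL2. Of the fibroblast genes above the limit LUM was at 0.42, DCN at 0.39, COL1A2 at 0.13 and COL1A1 at -0.02, and the endothelial one, PECAM1, was at 0.20. No marker had a signal of 0, and the part of other cell types in the results was not tested.

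IL6R was the gene of the group that differed most. Its brightest probe set, 226333_at, read 1588 after miR-99a and 834 after si-GL2, 1.90 times the control, or 0.92 as a difference. The next, 205945_at, read 843 after miR-99a and 478 after si-GL2, 1.76 times the control (0.80). The third, 217489_s_at, read 98.5 after miR-99a and 42.8 after si-GL2, 2.30 times the control (0.96). All 3 probe sets of the receptor gene were thus higher after miR-99a. The third was above 47.2 on the miR-99a array alone and passed the limit through that array, so the description of IL6R rests on the 2 brighter ones. In a population of cells, more cells with the message and more message per cell cannot be told apart.

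By its brightest probe set IL6R was 23rd from the top of 12218 expressed genes, with 0.18% of them further above the control. It was the 1 member of 10 at least 1.5-fold higher, where 1.21% of all expressed genes were. None of the 10 members was 1.5-fold lower (0 of 10), where 2.9% of all expressed genes were. This position uses values that were known when the group was chosen and is given as a description.

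**Figure D1:**
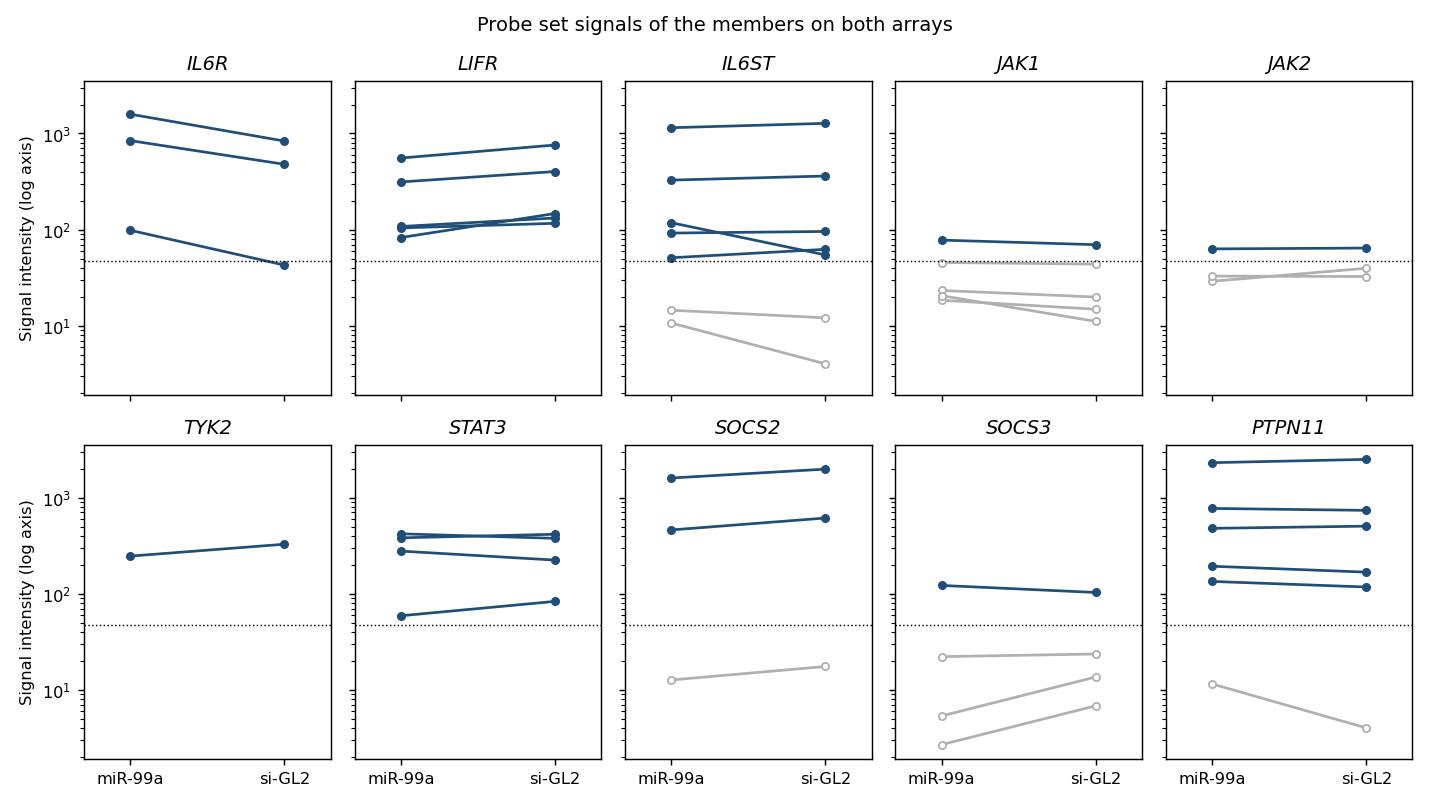
Signal intensity (log axis) of each of the 41 member probe sets on the miR-99a array (left) and the si-GL2 array (right), 1 panel per gene and 1 line per probe set. Filled blue points lie above the expression limit (dotted line, 47.2) by their mean level and open grey points below it. All 3 lines of IL6R are higher at the miR-99a end, and all 5 lines of LIFR are lower there.

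LIFR, the receptor chain for leukaemia inhibitory factor, which also pairs with gp130, lay on the other side of the control. Its brightest probe set, 225575_at, read 556 after miR-99a and 759 after si-GL2 (-0.44). The second, 227771_at, read 313 after miR-99a and 402 after si-GL2 (-0.35). All 5 LIFR probe sets were above the limit and all 5 were below 0. Of 422 genes with 5 or more probe sets above the limit, 63 had all of those below 0 (14.9%). The remaining 3 LIFR probe sets read 108, 82.8 and 104 after miR-99a, against 132, 147 and 116 after si-GL2. Of these, 205876_at, at 82.8 after miR-99a and 147 after si-GL2, was the 1 LIFR probe set more than 1.5-fold lower (-0.72), and the other 2 were at -0.26 and -0.14. Averaged over its probe sets LIFR was at -0.38, so the direction was shared by every probe set while the size varied by 0.59 between them.

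IL6ST, the shared chain gp130, had probe sets that disagreed. The brightest, 212195_at, read 1148 after miR-99a and 1275 after si-GL2 (-0.15), and the second, 212196_at, read 328 after miR-99a and 361 after si-GL2 (-0.14). These were small and alike. A dimmer probe set, 204864_s_at, read 118 after miR-99a and 54.6 after si-GL2, which is 0.93 in the opposite direction. The other 2 above the limit were at -0.05 (92.3 after miR-99a and 95.8 after si-GL2) and -0.23 (51.1 after miR-99a and 62.5 after si-GL2). The suffix _s marks probe sets that can match more than 1 transcript, and the 3 dimmer ones above the limit carry it. The differences of IL6ST spanned 1.15, and of 262 genes with 5 probe sets above the limit 0 had a wider span (median 0.43). The 2 IL6ST probe sets below the limit read 14.6 and 10.7 after miR-99a, against 12.1 and 4.03 after si-GL2.

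The 3 kinase genes differed little or were measured thinly. JAK1, the kinase that interleukin-6 signalling chiefly needs, had 1 of 5 probe sets above the limit, at 77.9 after miR-99a and 69.8 after si-GL2 (0.13). Its 4 dim probe sets were between 0.04 and 0.43, all above 0 and all at signals of 45.6 or less. JAK2, also the kinase of the growth hormone and erythropoietin receptors, read 63.1 after miR-99a and 64.4 after si-GL2 (-0.02) on its 1 probe set above the limit. Its dim probe sets were at -0.30 and 0.01. TYK2, which also serves the interferon and interleukin-12 receptors, has 1 probe set on this array, at 246 after miR-99a and 327 after si-GL2 (-0.39). That value has no second probe set beside it, and it was short of 1.5-fold.

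STAT3, the transcription factor of the pathway, showed no common direction. Its brightest probe set, 225289_at, read 382 after miR-99a and 416 after si-GL2 (-0.12). The next, 208991_at, of nearly the same level, read 420 after miR-99a and 377 after si-GL2 (0.15). The third read 278 after miR-99a and 224 after si-GL2 (0.29), and the dimmest, 243213_at, read 59.1 after miR-99a and 83.3 after si-GL2 (-0.40). With 2 probe sets on each side of 0 the mean was -0.02 and the span 0.70. Of 642 genes with 4 probe sets above the limit, 57 had a wider span (8.88%). Messenger RNA level does not report the phosphorylation of STAT3, which is how the protein is switched on.

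The SOCS genes encode inhibitors that are induced by cytokine signalling and act back on the receptors and kinases. SOCS2, known for restraining growth hormone signalling, read 1597 after miR-99a and 1976 after si-GL2 on its brightest probe set (-0.30). Its second, 203372_s_at, read 461 after miR-99a and 613 after si-GL2 (-0.40), and the third was dim at 12.7 after miR-99a and 17.5 after si-GL2. The 2 bright probe sets lay within 0.10 of each other and short of 1.5-fold. SOCS3, which binds gp130 and the JAKs, read 122 after miR-99a and 103 after si-GL2 (0.21) on 206360_s_at, its 1 probe set above the limit. Its 3 dim probe sets read 22.2, 5.37 and 2.70 after miR-99a, against 23.7, 13.6 and 6.84 after si-GL2, and all were below 0. Averaged over its 4 probe sets SOCS3 was at -0.15, so its direction rests on which probe sets are read.

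PTPN11 encodes the phosphatase SHP2, which docks on the same gp130 site as SOCS3 and links the receptor to RAS. Its brightest probe set read 2307 after miR-99a and 2495 after si-GL2 (-0.11). The other 4 above the limit read 771, 479, 193 and 134 after miR-99a, against 736, 505, 168 and 118 after si-GL2. Their differences lay between -0.07 and 0.19, so PTPN11 had 5 readings close to 0, spanning 0.30. Averaged over 6 probe sets PTPN11 was at 0.12, a value that takes in one below the limit at 11.6 after miR-99a and 4.03 after si-GL2.

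**Figure D2:**
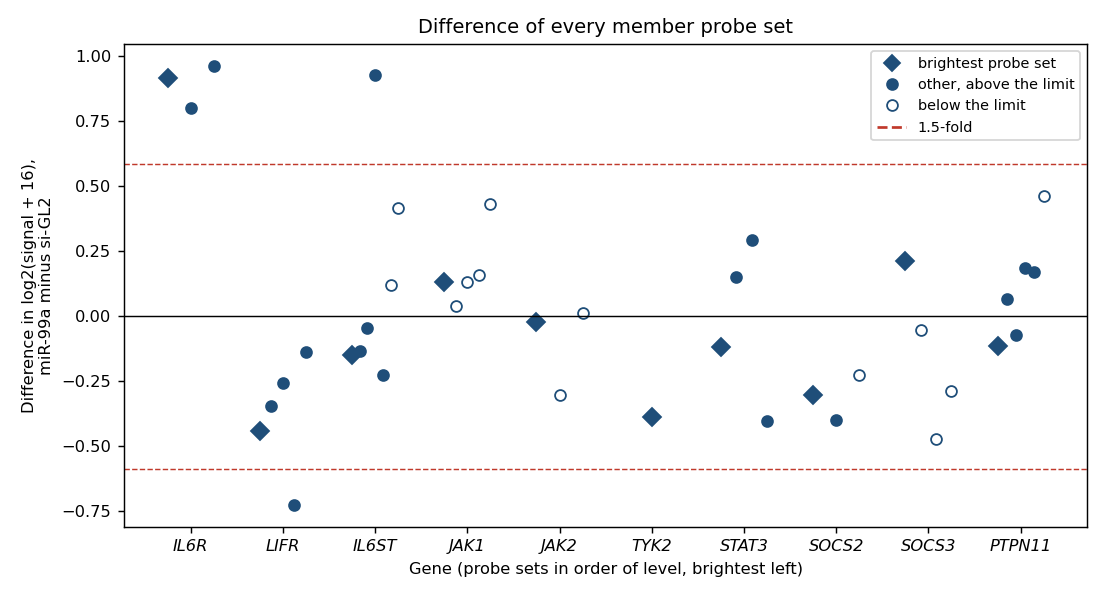
Difference in log2(signal + 16), miR-99a minus si-GL2, of every member probe set (vertical axis) by gene (horizontal axis). Diamonds are the brightest probe sets, filled circles others above the limit, open circles those below it, and dashed lines mark 1.5-fold. All IL6R points lie above the upper line, joined by 1 of IL6ST, and 1 point of LIFR lies below the lower line.

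Over the probe sets, 4 of the 28 above the limit were at least 1.5-fold higher, the 3 of IL6R and 204864_s_at of IL6ST, where 1.53% of 22407 named probe sets above the limit were. One of the 4, 217489_s_at of IL6R, is the probe set that passed the limit through the miR-99a array alone. One of 28, 205876_at of LIFR, was 1.5-fold lower, where 2.76% were. Probe sets of 1 gene are readings of the same 2 RNA samples and are not replicates of a condition. When all probe sets above the limit were split by level into 4 equal bands, in the brightest band the central 95% of differences ran from -0.47 to 0.43, and in the dimmest band from -0.58 to 0.56. The same 4 member probe sets lay above the range of their band and the same 1 below, while the other 23 lay inside. Within genes, the pooled SD of the difference between probe sets was 0.20 over 5842 genes with 2 or more above the limit. By their brightest probe sets 3 of the 10 genes were above 0 and 7 below, with a median of -0.12, beside -0.03 over all expressed genes. Averaging each gene's probe sets instead gave a median of -0.06, and IL6ST (0.13), PTPN11 (0.12) and SOCS3 (-0.15) lay on the other side of 0.

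**Figure D3:**
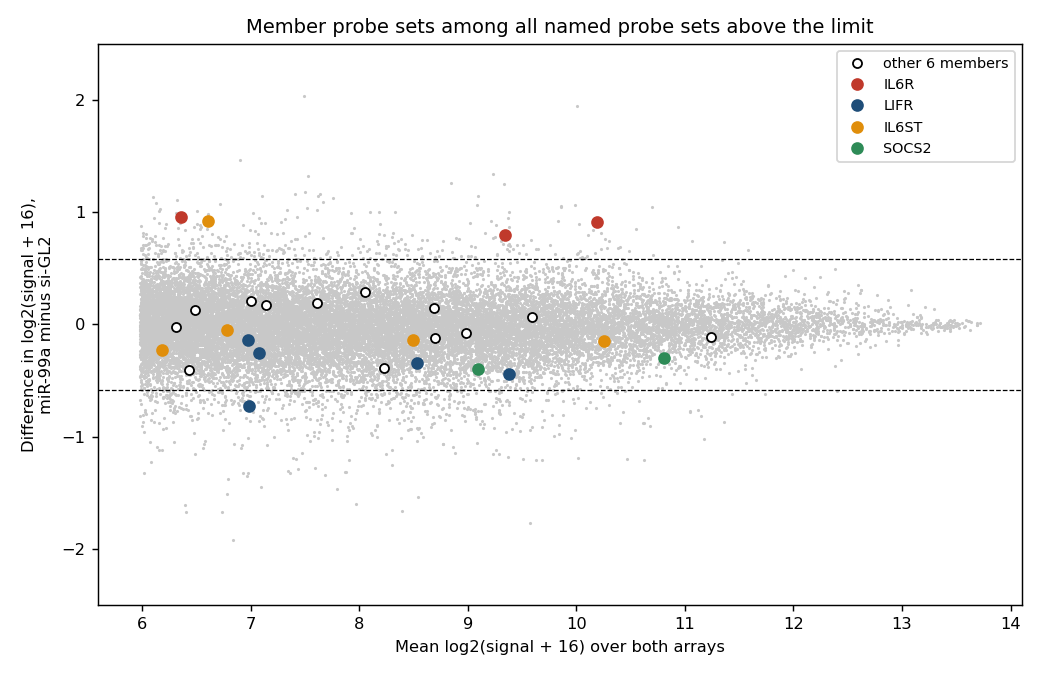
Difference (vertical axis) against mean level (horizontal axis), both from log2(signal + 16), for 22407 named probe sets above the limit (grey) and the 28 of the members (coloured or outlined), with dashed lines at 1.5-fold. The 3 IL6R points lie above 0.79, and the dimmest of them passed the limit through the miR-99a array alone. The points of SOCS2 and of LIFR are all below 0.

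Ligands and further receptors of the family were read from a list beyond the 10 members. Of 8 ligand genes measured, 7 lay below the limit. IL6 itself was among them, at 39.7 after miR-99a and 35.8 after si-GL2, as was LIF, the ligand of LIFR, at 23.7 after miR-99a and 35.1 after si-GL2. IL27 was the 1 ligand above the limit, at 58.4 after miR-99a and 63.9 after si-GL2 (-0.10). Among other receptor chains, OSMR, the oncostatin M receptor that pairs with gp130, read 225 after miR-99a and 207 after si-GL2 (0.11). IL11RA was at -0.16 and CNTFR, the ciliary neurotrophic factor receptor, at 0.29, from 83.1 after miR-99a and 65.1 after si-GL2. ADAM10 and ADAM17, proteases that can cut the interleukin-6 receptor from the cell surface, were at 0.24 and 0.03. ADAM10 read 2589 after miR-99a and 2185 after si-GL2, and its 3 probe sets lay between 0.24 and 0.30.

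None of these genes passed 1.5-fold (0 of 5 receptor and protease genes above the limit). Of all expressed genes 1.21% were 1.5-fold higher and 2.9% lower, so 0 of 5 says little about these genes. Among the receptors of its family IL6R alone passed 1.5-fold by its brightest probe set. That comparison is one of size, since no difference between genes was tested.

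Other JAK, STAT, SOCS, PIAS and phosphatase genes were held, with the ligands and other receptors, in a list of 35 pathway genes that leaves out the members. Of these, 31 were measured and 20 lay above the limit, of which 13 were above 0, 7 were below, and 0 passed 1.5-fold in either direction. The median was 0.17, beside -0.03 over all expressed genes, of which 43.7% were above 0. Of those expressed genes 1.21% were 1.5-fold higher and 2.9% lower. With each gene taken as the mean over its probe sets that median was 0.04, without the _x_ and _s_ probe sets it was 0.06, and with no expression limit 0.08. CISH, a SOCS family member that STAT5 induces, was highest at 0.53, from 448 after miR-99a and 305 after si-GL2. Its 3 probe sets, each of the _x_ or _s_ kind that can match other transcripts, ran from 0.17 to 0.53. JAK3, the kinase of common gamma chain receptors, followed at 0.40 by its 1 probe set above the limit, from 193 after miR-99a and 143 after si-GL2.

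PIAS4, a SUMO ligase that restrains STAT activity, was lowest at -0.49, from 115 after miR-99a and 168 after si-GL2. By their brightest probe sets its relatives PIAS3 at 0.38, PIAS2 at 0.34 and PIAS1 at 0.19 lay on the other side. Averaged over all probe sets PIAS4 was at -0.34, PIAS2 at 0.09 and PIAS1 at 0.13, while PIAS3 has 1 probe set. SOCS5 was second lowest at -0.36, with its 3 probe sets between -0.36 and -0.01. STAT5B was at 0.07 by its brightest probe set, while its 5 probe sets reached down to -0.70. STAT5A was at -0.09, from 66.5 after miR-99a and 71.6 after si-GL2. The phosphatase genes PTPN2 at 0.29 and PTPN6 at 0.28 were above 0, and PTPN1 was at -0.09. Averaged over all probe sets PTPN2 was at 0.13 and PTPN1 at 0.01, while PTPN6 has 1 probe set. By their brightest probe sets the other SOCS genes were SOCS1 at 0.24, SOCS4 at 0.22, SOCS7 at 0.14 and SOCS6 at -0.07. Averaged over all probe sets SOCS1 was at -0.03, SOCS4 at 0.003, SOCS7 at 0.07 and SOCS6 at -0.16. The probe sets of SOCS4 above the limit lay at -0.21 and 0.22.

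The adaptors and kinases by which gp130 reaches RAS and PI3K had a median of -0.09 over 11 genes by their brightest probe sets. Of these genes 3 were above 0, 8 below and 0 past 1.5-fold. Averaged over all probe sets SHC1 (0.09), SOS1 (0.02) and SOS2 (0.02) lay above 0 instead, while the others kept their side. Of all expressed genes 43.7% were above 0, 1.21% were 1.5-fold higher and 2.9% lower. A count of 0 in 11 is near the last 2 shares. HRAS was lowest at -0.48, from 379 after miR-99a and 535 after si-GL2, followed by the docking protein gene GAB2 at -0.29. Highest were GAB1 at 0.11 and the kinase gene MAP2K1 at 0.03. Among receptors of other cytokines, 10 of 17 measured lay above the limit, with a median of 0.05, 8 above 0 and 0 past 1.5-fold. That 0 of 10 is also near the 1.5-fold shares over all expressed genes. The interferon receptor chain IFNAR1 was highest at 0.44, though its 4 probe sets ran from -0.35. GHR, the growth hormone receptor on which SOCS2 acts, followed at 0.40, from 896 after miR-99a and 676 after si-GL2. EPOR at -0.09 and IL12RB1 at -0.06 were lowest.

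Genes reported as STAT3 targets in other settings were listed as well. The direction in which STAT3 acts on each was not checked, so their differences do not measure the pathway's output. Of 37 measured, 25 lay above the limit, 17 of them above 0, 8 below and 0 past 1.5-fold in either direction, with a median of 0.15. Over all expressed genes 43.7% were above 0, 1.21% were 1.5-fold higher and 2.9% were 1.5-fold lower, and the median was -0.03. The median of the STAT3 target genes was 0.09 with the limit at the 75th percentile of level and 0.09 with no limit. CISH, which is also on the pathway list, was highest at 0.53. The death receptor gene FAS followed at 0.43, from 119 after miR-99a and 84.5 after si-GL2, and its 4 probe sets above the limit lay between 0.42 and 0.75. The kinase gene PIM1 was lowest at -0.45, from 190 after miR-99a and 266 after si-GL2. BCL2L1, which encodes the survival protein BCL-XL, was at -0.42 by its brightest probe set, 517 after miR-99a and 696 after si-GL2, and at 0.25 by another. Of the acute-phase genes on the list, HP was above the limit, at 304 after miR-99a and 353 after si-GL2 (-0.20), and CRP, FGG, LBP, A2M and SERPINA3 were below it. CRP read 6.08 after miR-99a and 13.6 after si-GL2, while SERPINA3 lay the other way, at 46.9 after miR-99a and 20.8 after si-GL2.

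**Figure D4:**
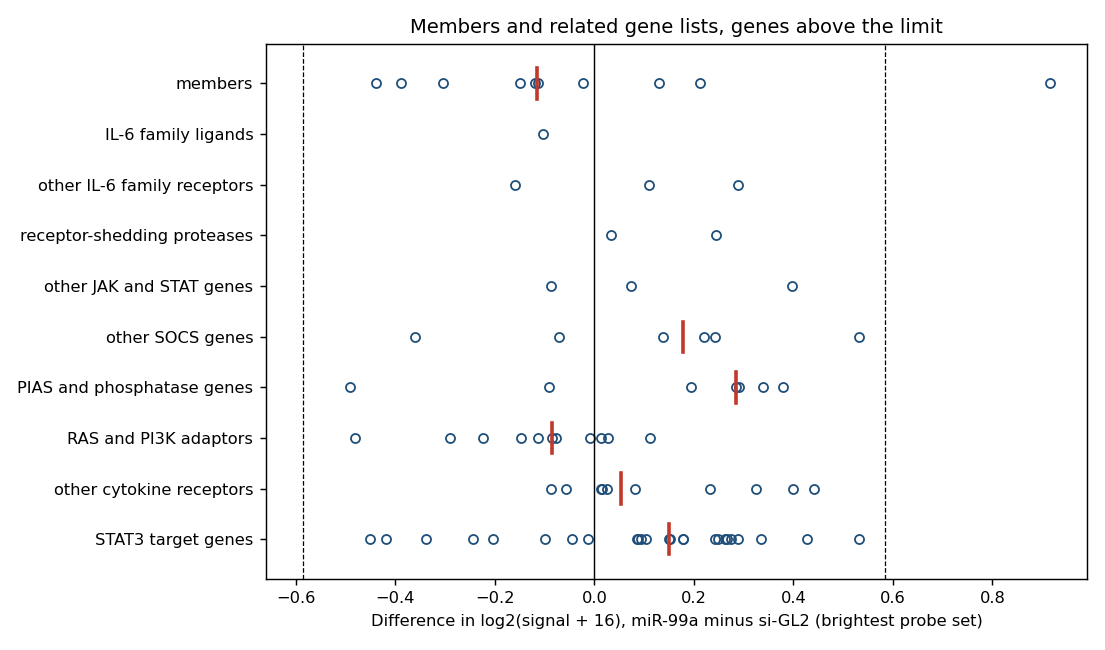
Difference in log2(signal + 16), miR-99a minus si-GL2, by the brightest probe set (horizontal axis), for the 10 members and 9 related lists (rows). Each circle is 1 gene above the limit, red bars are medians of lists with 5 or more such genes, and dashed lines mark 1.5-fold. IL6R, at 0.92, is the 1 circle outside the dashed lines.

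The regions around the members' transcription starts were read from RefSeq (GRCh38.p14, 250 bases before to 50 after a start), taking 16 windows of 8 members. SOCS2 and PTPN11 were not read. The windows were searched for TTCNNNGAA, the letters of the core STAT site, which reads the same on both strands. It occurred in 2 of the 16 windows, both of LIFR, and in 7.66% of all 35116 windows. It was not in the third LIFR window. A site of any member, SOCS3 among them, that lies outside the windows read here would be missed. The 2 LIFR windows that hold it are shown because that gene was lower on every probe set, and the capitals mark the motif, which begins 165 bases before the start in the first and 182 before it in the second. The IL6R window is shown because that gene differed most in the group. These letters are not in it, nor in any window read of a member other than LIFR. JAK1 was likewise above 0 on every probe set and TYK2 below 0 on its only one, and their windows are not shown. LIFR and IL6R were picked by their differences, and no link between the motif and a direction was tested. A match is a description of letters, and the arrays do not report from which start a message came.
LIFR, chr5:38595356-38595655, minus strand: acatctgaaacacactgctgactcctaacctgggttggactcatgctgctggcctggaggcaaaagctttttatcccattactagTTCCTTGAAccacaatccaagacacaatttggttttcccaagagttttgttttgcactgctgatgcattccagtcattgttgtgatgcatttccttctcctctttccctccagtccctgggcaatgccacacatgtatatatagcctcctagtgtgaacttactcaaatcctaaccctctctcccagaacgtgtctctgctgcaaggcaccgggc
LIFR, chr5:38557418-38557717, minus strand: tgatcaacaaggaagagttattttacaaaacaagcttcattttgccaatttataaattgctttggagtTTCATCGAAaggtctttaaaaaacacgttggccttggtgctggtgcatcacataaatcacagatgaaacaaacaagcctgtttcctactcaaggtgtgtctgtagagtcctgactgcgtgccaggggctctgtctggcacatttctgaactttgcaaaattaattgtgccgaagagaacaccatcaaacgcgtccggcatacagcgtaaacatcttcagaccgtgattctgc
IL6R, chr1:154405093-154405392, plus strand: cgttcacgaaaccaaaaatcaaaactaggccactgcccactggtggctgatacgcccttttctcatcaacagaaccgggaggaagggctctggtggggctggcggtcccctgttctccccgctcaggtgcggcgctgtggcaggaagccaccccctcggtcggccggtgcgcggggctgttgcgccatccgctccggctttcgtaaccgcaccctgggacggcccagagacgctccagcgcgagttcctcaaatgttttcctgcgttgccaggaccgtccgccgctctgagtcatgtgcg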

How the data were processed

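The values are signal intensities that the authors deposited, 1 for each probe set, taken as linear from their range, from C4-2 cells transfected with miR-99a (1 array) or si-GL2 (1 array). RNA was extracted with Trizol and biotin-labelled, per the labels' protocols. How probes were summarised and arrays scaled is not given in the sources used here. No normalization was added, because the array medians differed by 0.01 on the log2 scale, under the limit of 0.1 set for centring. Gene names came from the platform annotation, and 41097 probe sets had 1 name, 1801 several and 11777 none. The Entrez identifiers of all 10 members matched their symbols in a GRCh38.p14 gene table.

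Differences were computed on log2(signal + 16). Calls are a rule of size (1.5-fold), with no test, since each group is 1 array, and precision is limited by that number. Named genes are every member, and of each other list the 2 highest and 2 lowest above the limit, plus further list genes for context, chosen after their values were seen. The members and lists were chosen with earlier results of these data known. Some list genes were not analysed here. Alternatives were pseudocounts of 1 and 64, centring, quantile normalization, no expression limit or the 75th percentile, the mean over probe sets, leaving out _x_ and _s_ probe sets, and a 2-fold rule. Python 3.11.15, numpy 2.4.6, pandas 2.3.3 and matplotlib 3.10.9 were used.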

Additional observations from a re-analysis of the deposited data

How the results depend on the processing

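Across 152 recomputed values, 143 stayed within 1.5 times the count or within the pooled SD between probe sets of 0.20, and 9 did not. IL6R lay between 0.88 and 0.94 under all 8 alternatives that recomputed it, and its dimmest probe set was at 0.61 with a pseudocount of 64 and at 1.18 with one of 1. LIFR lay between -0.45 and -0.38, SOCS2 between -0.31 and -0.29, TYK2 between -0.41 and -0.33 and STAT3 between -0.13 and -0.02. With the mean over probe sets IL6ST was at 0.13, PTPN11 at 0.12 and SOCS3 at -0.15, each on the other side of 0 from its brightest probe set, as all probe sets then count equally. Under the 2-fold rule 0 members were higher, and over all genes 17 were higher and 41 lower, beside 148 and 354 at 1.5-fold. Under quantile normalization 1 pathway gene, which is also 1 STAT3 target gene, was 1.5-fold higher, CISH at 0.59. Over all genes 165 of 12218 were higher in that setting (1.35%). With no expression limit 1 pathway gene was lower, EBI3 at -0.75, and 1 STAT3 target gene higher, SERPINA3 at 0.77, both dim, while over all genes 573 were higher and 729 lower. Without _x_ and _s_ probe sets 1 pathway gene was lower, STAT5B at -0.70, while over all genes 323 of 9424 were lower (3.43%). Counts over all genes were 74 higher and 179 lower with a pseudocount of 64, 97 and 211 with the mean over probe sets, and 73 and 203 above the 75th percentile of level. The median over the STAT3 target genes lay between 0.09 and 0.17 and that over the members between -0.15 and -0.06. JAK1, JAK2, TYK2 and SOCS3 gave no value where their probe sets lay below the 75th percentile or carried an _s_. With 1 array a group, no array could be left out, and dim signals limit JAK1, JAK2 and SOCS3 most.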
